A study of Rattus norvegicus with 21 samples.

Results

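The genes described here make and copy DNA. They are 42 genes named as a list, covering the licensing of replication origins, the replicative helicase, the sliding clamp and its loader, the single-stranded DNA binding proteins, the polymerases and primase, the joining of Okazaki fragments, the supply of deoxynucleotides, and the chromatin and fork factors that travel with replication. The array annotation carried a symbol for 40 of the 42, and Mcm3 and Pole2 were dropped because the annotation used here held neither. The study's own annotation gave Mcm3 a probe set, and the paper lists that gene as higher in the tumors. Each gene was read from the probe set with the highest mean over all 21 arrays. The array had 29214 probe sets, and 14506 genes had a probe set with 1 symbol.

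The arrays were hybridised with RNA from 5 normal pituitaries and from 16 pituitary lesions of MENX rats, a strain that develops multifocal pituitary adenomas that the study describes as mainly of gonadotroph origin. All rats had the strain Sprague–Dawley white eye/Wistar–Kyoto. The lesions came from rats homozygous for a mutation of Cdkn1b (written Cdknb1 in the labels), which encodes the cell cycle inhibitor p27Kip1, at 7 to 12 months of age, and the normal pituitaries from wild-type rats at 6 months. The lesions carried 9 sample numbers, each read here as 1 rat, and the lesions of 1 number were averaged. Each gene therefore had 9 adenoma values (rats 1 to 9) and 5 wild-type values (pituitaries 1 to 5). The paper gives a larger number of mutant rats than there are sample numbers, and younger ages for most of them than the labels do, and the labels do not settle which holds. The number of adenoma values, the spread within and between rats and the fits of age all rest on the labels.

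Some limits of the samples touch every value below. All the wild-type rats were younger than the youngest mutant, and genotype and age cannot be told apart. Sample numbers had the prefix 08 (5 adenoma rats, 2 wild-type) or 09 (4 adenoma rats, 3 wild-type). The labels do not give the meaning of this prefix, and all 3 male adenoma rats had 08. The paper calls the tissue macrodissected in its RNA methods and microdissected in its account of the rat tissue. In such bulk RNA a larger share of dividing cells and more RNA of a gene per cell cannot be told apart. Of 9 markers of pituitary tissue, Cga (the hormone alpha subunit) and Gnrhr (the GnRH receptor of gonadotrophs) were called higher in the adenomas and 6 others lower, Lhb (log2 fold change -2.24) and Fshb (-2.38) among them, and Nr5a1 had no symbol in the annotation. Markers of macrophages, which can divide in tissue, were called higher for 8 of 12 genes, and their mean log2 level ran from 6.30 to 6.91 over the wild-type pituitaries and from 6.81 to 7.70 over the adenomas. Among the other marker lists, 3 of 10 endothelial genes were called higher, 3 of 8 fibroblast and pericyte genes higher and 1 lower, 4 of 7 folliculostellate genes lower and none of 8 T, NK and B cell genes (limma, unadjusted p under 0.05 for 0 of these 8 upward and 1 downward). For comparison, 8.49% of all probe sets were called higher and 9.06% lower, and no marker list was tested against these shares. The part of these cell types in the values of the replication genes was not tested.

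DNA is copied once per cell cycle. In G1 phase the origin recognition complex, Cdc6 and Cdt1 load the MCM helicase onto DNA. In S phase Cdc45 and the GINS complex turn it into the active helicase, the polymerases copy both strands, and ribonucleotide reductase and the thymidylate enzymes supply the deoxynucleotides. Many of these genes are transcribed at the boundary of G1 and S by E2F factors, which the retinoblastoma protein holds back until cyclin-dependent kinases, the targets of p27, release them.

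The sequences before the starts of some of these genes are shown first, with the words that E2F factors are known to bind. RefSeq promoter windows of build GRCr8, reaching 250 bases before and 50 after each gene start, were held for 36 of the 40 genes, and Orc1, Cdc6, Rpa3 and Rrm2 had no entry. The windows were searched on both strands for the E2F-type words TTTCCCGC, TTTGGCGC, TTTCGCGC and TTTGCCGC, where a word and its reverse partner may overlap. One or more of these words stood in the windows of 17 of the 36 genes (47.2%), against 2.14% of all 33469 promoter windows. The 36 genes had 38 windows, and a gene was counted if any of its windows held a word. The share over all promoters was counted by window. The 4 sequences below are from genes called higher in the adenomas, printed in the direction of the gene with the E2F-type words in capitals. Mcm5 is given over the whole 250 bases before its start because it had 3 such words and the largest rise among the 36 genes, and the others over the stretch around their words.
Mcm5: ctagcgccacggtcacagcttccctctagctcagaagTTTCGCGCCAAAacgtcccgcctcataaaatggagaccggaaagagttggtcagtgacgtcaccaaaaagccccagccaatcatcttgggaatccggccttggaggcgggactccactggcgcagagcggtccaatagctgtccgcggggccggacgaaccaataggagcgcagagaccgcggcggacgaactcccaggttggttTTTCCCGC
Mcm6: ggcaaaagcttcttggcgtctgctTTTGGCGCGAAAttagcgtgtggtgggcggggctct
Gins1: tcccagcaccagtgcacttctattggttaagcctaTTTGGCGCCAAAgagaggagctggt
Uhrf1: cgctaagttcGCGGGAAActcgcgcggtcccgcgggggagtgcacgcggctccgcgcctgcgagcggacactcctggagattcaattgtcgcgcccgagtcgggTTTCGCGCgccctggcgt

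These stretches lie at chr19:13488563-13488812 on the plus strand, chr13:42404456-42404515 on the minus strand, chr3:160184860-160184919 on the plus strand and chr9:1222983-1223104 on the plus strand. Uhrf1 had 3 annotated starts, and the words stood before 1 of them. In Mcm5, Mcm6 and Gins1 a word overlapped a word on the opposite strand, as an exact palindrome in Gins1 and a near-palindrome in Mcm5 and Mcm6. The next 4 are from genes that did not pass the test in the adenomas, shown because they carry the same words.
Mcm2: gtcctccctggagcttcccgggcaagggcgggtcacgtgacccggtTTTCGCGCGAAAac
Mcm7: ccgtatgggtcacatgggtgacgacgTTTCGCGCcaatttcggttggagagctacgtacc
Tyms: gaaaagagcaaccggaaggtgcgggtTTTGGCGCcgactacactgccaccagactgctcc
Pola1: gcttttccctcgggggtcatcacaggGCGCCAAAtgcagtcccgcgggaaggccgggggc

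They lie on the minus strand at chr4:122918095-122918154, chr12:22163197-22163256, chr9:120776087-120776146 and chrX:62342494-62342553. Mcm2 holds an overlapping pair that is an exact palindrome, as in Gins1 but with another word. The window of Mcm7 held a further word, TTTCCCGC on the opposite strand at -233 bases from the gene start, outside the stretch printed. Over all genes with a window, the words stood in 8 of the 15 that were called higher and in 9 of the 21 that were not. The word CCAAT stood in the windows of 21 of the 36 genes (58.3%), against 37.5% of all promoter windows, counted in the same way. It was present in 11 of the 15 called genes and in 10 of the 21 others. These matches describe letters in a window, and no binding was measured.

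**Figure D1:**
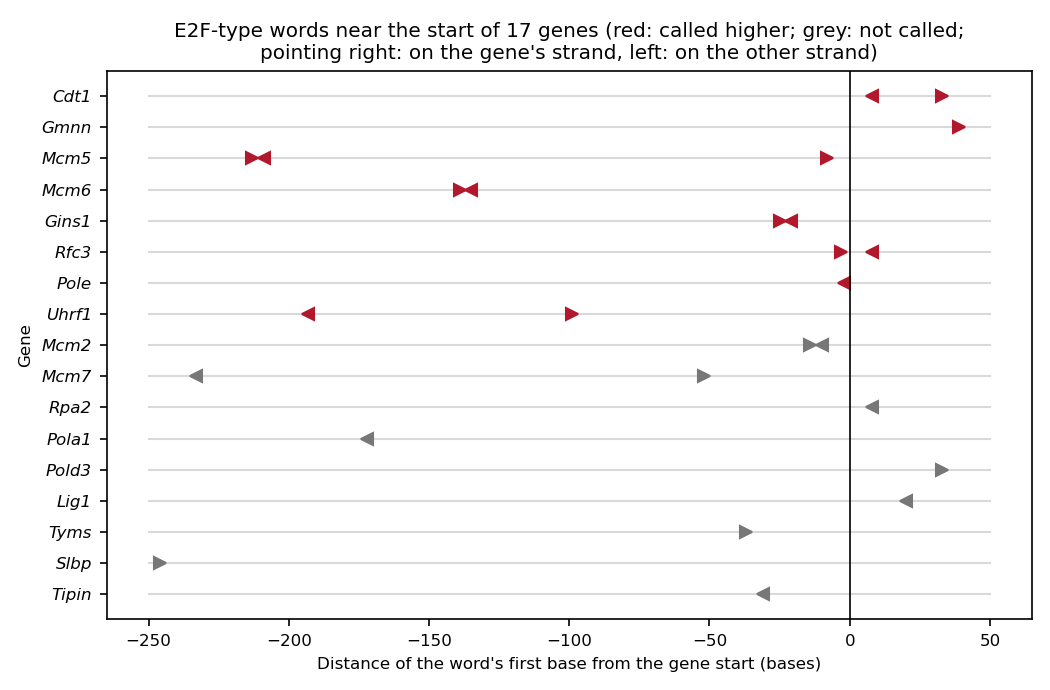
Positions of the E2F-type words in the promoter windows of 17 genes. The horizontal axis is the distance in bases from the gene start, each row is a gene, triangles point right for a word on the strand of the gene and left for the other strand, and red marks the 8 genes called higher and grey the 9 that were not. Of the 26 matches, 17 lie within 60 bases of the start.

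In the adenomas, 17 of the 40 replication genes were called higher and none lower, at an adjusted p under 0.05 in limma's moderated test over all probe sets. Over the whole array 8.49% of probe sets were called higher and 9.06% lower. The genes were chosen with earlier results of these data known. Their larger share of higher calls is therefore a description and not a test. The roles below hold few genes each, and no role was tested against the shares over all probe sets. At an unadjusted p under 0.05, 25 of the 40 were higher and 0 lower, against 14.6% and 18% of all probe sets. The median log2 fold change of the 40 genes was 0.31, against -0.035 over all probe sets, with 34 values above 0 and 6 below. Folds of called genes ran from 1.26 for Cdc45 to 6.31 for Rrm2, and the next largest was 2.36 for Mcm5. A fold over 2 was reached by Rrm2, Mcm5 and Mcm6, that is by 3 of 40, where 1.43% of all probe sets were called higher with such a fold. For 10 genes all 9 adenoma values lay above all 5 wild-type values, which held for 2.66% of all probe sets.

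The remaining 23 genes did not pass the test, and this does not show that they were equal. Their 95% intervals lay wholly above 0 for 8 genes and spanned 0 for 15. The upper end stayed under 1.5-fold for 20 of them, and the widest reached 1.92-fold for Tyms.

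**Figure D2:**
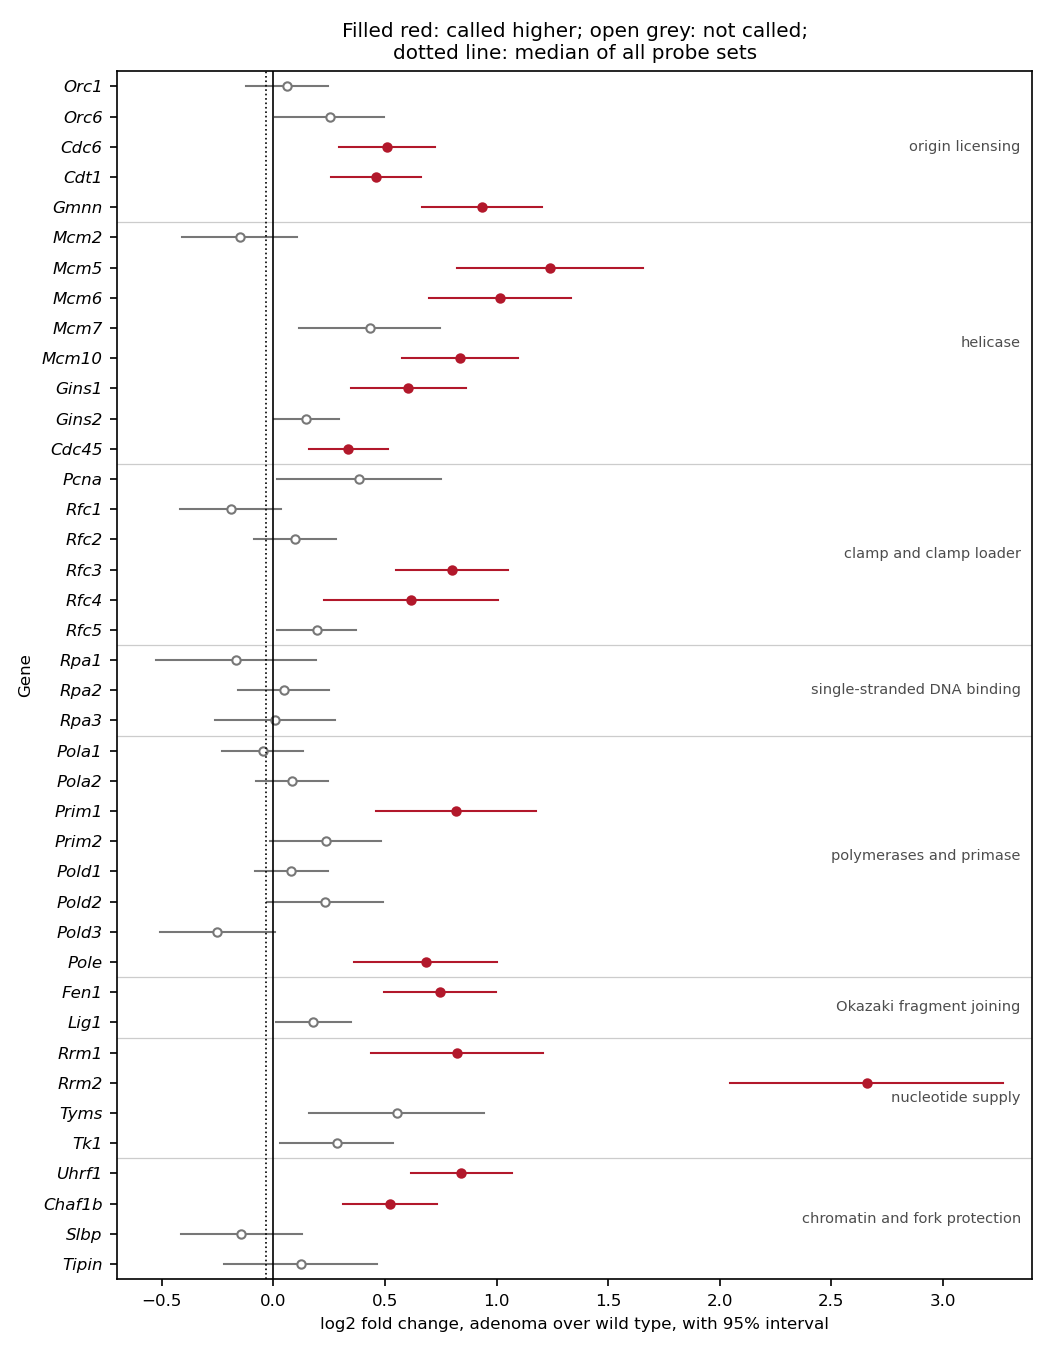
Log2 fold change of each of the 40 genes, adenoma over wild type, on the horizontal axis with its 95% interval from limma, ordered by role. Filled red points are the 17 genes called higher and open grey points the 23 not called, and the dotted line is the median of all probe sets at -0.035. Rrm2 stands apart at 2.66. None of the 3 single-stranded DNA binding genes is called, where 8.49% of all probe sets were called higher.

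Ribonucleotide reductase, which makes deoxynucleotides from ribonucleotides, had the largest change of all the genes. Rrm2 encodes its small subunit, the one whose amount follows S phase. On the log2 scale the 5 wild-type pituitaries had 4.77, 5.41, 5.54, 5.43 and 4.84 for Rrm2, and the 9 adenoma values ran from 6.94 to 8.57 with a median of 8.08. Every adenoma value was above every wild-type value, with a gap of more than 1 log2 unit between the groups. The means were 5.20 ± 0.36 (SD, n = 5) and 7.86 ± 0.65 (SD, n = 9), a 6.31-fold rise (log2 fold change 2.66, standard error 0.29, adjusted p = 6.65e-05 from limma). A second probe set carrying the Rrm2 symbol had a log2 fold change of 2.06 (adjusted p = 0.000254 from limma), and the 9 adenoma values were again above all wild-type values.

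Rrm1 encodes the large subunit. Wild-type values of Rrm1 were 9.19, 9.22, 8.51, 8.35 and 8.31, and adenoma values ran from 9.10 to 9.94 with a median of 9.53. The groups met at their edges, with 8 of 9 adenomas above the highest wild-type pituitary (1.77-fold, log2 fold change 0.82, standard error 0.18, adjusted p = 0.00631 from limma). The second probe set of Rrm1 was dim, between 4.13 and 4.79 over all animals, and its log2 fold change of 0.19 did not pass the test (adjusted p = 0.207).

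Of the thymidylate enzymes, Tyms makes dTMP from dUMP and Tk1 salvages thymidine. Tyms had wild-type values of 9.55, 9.41, 8.96, 8.43 and 8.46 and adenoma values from 9.12 to 9.84 with a median of 9.61. Its 2 wild-type pituitaries of prefix 08 lay among the adenoma values and its 3 of prefix 09 below all of them. The change missed the threshold (log2 fold change 0.55, 95% interval 0.16 to 0.94, adjusted p = 0.0501 from limma). Tyms was called higher in 13 of 32 alternative settings, among them the fits without wild-type pituitary 1 or 2 or adenoma rat 8 or 9, with log2 fold changes of 0.42 to 0.70 over the fits that left out 1 animal. Tk1 also did not pass (log2 fold change 0.28, 95% interval 0.030 to 0.54).

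**Figure D3:**
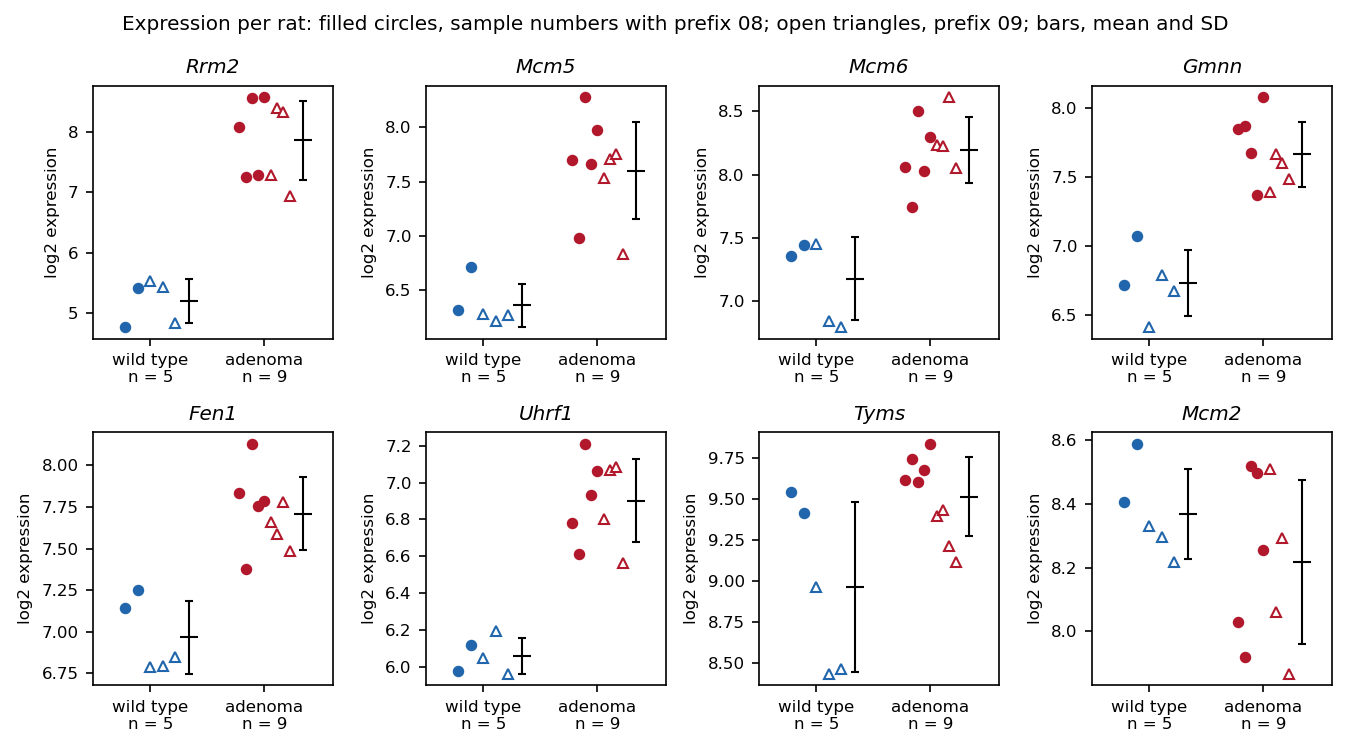
Log2 expression of 8 genes in each rat, with wild-type pituitaries in blue and adenomas in red, filled circles for prefix 08, open triangles for prefix 09, and bars for mean and SD (n = 5 and n = 9). The groups do not overlap for Rrm2, Mcm5, Mcm6, Gmnn, Fen1 and Uhrf1, and they overlap for Tyms and Mcm2. Each panel has its own vertical axis, which does not start at 0.

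The replicative helicase was called higher for 5 of its 8 measured genes, against 8.49% of all probe sets. Mcm5, a subunit of the MCM ring, had wild-type values of 6.32, 6.71, 6.28, 6.22 and 6.27 and adenoma values from 6.83 to 8.27 with a median of 7.70. The lowest adenomas, 2 and 9 at 6.98 and 6.83, were still above the highest wild-type pituitary. Its rise was 2.36-fold (log2 fold change 1.24, standard error 0.20, adjusted p = 0.0008 from limma). Mcm6, another ring subunit, had 7.36, 7.44, 7.46, 6.85 and 6.80 in the wild-type pituitaries and ran from 7.74 to 8.61 with a median of 8.22 in the adenomas. These groups did not overlap, and the rise was 2.02-fold (log2 fold change 1.02, standard error 0.15, adjusted p = 0.000493 from limma). Mcm10, which helps activate the loaded helicase, had 5.76, 5.56, 5.41, 5.76 and 5.61 in wild-type tissue and ran from 6.01 to 6.83 with a median of 6.50 in the adenomas, again without overlap (log2 fold change 0.84, standard error 0.12, adjusted p = 0.000475 from limma). Gins1, a GINS subunit, and Cdc45 had smaller log2 fold changes of 0.60 and 0.34 (adjusted p = 0.00379 and 0.0127 from limma).

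The MCM ring subunits did not give 1 uniform value. Mcm2 had wild-type values of 8.41, 8.59, 8.33, 8.30 and 8.22, adenoma values from 7.87 to 8.52 with a median of 8.25, and a log2 fold change of -0.15 with a 95% interval of -0.41 to 0.11. The adenoma values of Mcm2 lay on both sides of 4 of the 5 wild-type values. Mcm7 had 8.54, 8.01, 7.81, 7.48 and 7.38 in wild-type pituitaries and ran from 8.05 to 8.48 with a median of 8.27 in adenomas, with log2 fold change 0.43 and 95% interval 0.11 to 0.75. Wild-type pituitary 1 was above every adenoma value of Mcm7, and the other wild-type values were below every one. Without wild-type pituitary 1 the log2 fold change of Mcm7 was 0.60 and the gene was called. Gins2 missed the threshold with a log2 fold change of 0.15. Whether the changes of these subunits differ from that of Mcm5 was not tested.

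Licensing genes were called higher for 3 of 5, against 8.49% of all probe sets. Gmnn encodes geminin, which binds Cdt1 and blocks a second round of licensing. Its wild-type values were 6.72, 7.07, 6.41, 6.79 and 6.67, and its adenoma values ran from 7.37 to 8.08 with a median of 7.67. The groups did not overlap, and Gmnn was 1.91-fold higher (log2 fold change 0.93, standard error 0.13, adjusted p = 0.000312 from limma). Cdc6 and Cdt1 are the loaders of the MCM ring. For Cdc6 the wild-type pituitaries had 5.49, 5.90, 5.82, 5.89 and 6.02 and the adenomas ran from 6.05 to 6.61 with a median of 6.30, without overlap (log2 fold change 0.51, standard error 0.10, adjusted p = 0.00357 from limma). For Cdt1 they had 6.08, 6.24, 6.05, 6.01 and 5.96 and the adenomas ran from 6.23 to 6.86 with a median of 6.54, with 8 of 9 adenomas above all wild-type values (log2 fold change 0.46, standard error 0.095, adjusted p = 0.00458 from limma). The origin recognition subunits Orc1 and Orc6 did not pass, with log2 fold changes of 0.062 and 0.25.

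The sliding clamp and its loader had 2 genes called higher among 6, against 8.49% of all probe sets. Rfc3 and Rfc4 encode small subunits of replication factor C, which opens the clamp and places it on DNA. Rfc3 had wild-type values of 6.82, 6.91, 6.62, 6.34 and 7.10 and adenoma values from 7.25 to 7.75 with a median of 7.65, with no overlap (log2 fold change 0.80, standard error 0.12, adjusted p = 0.000496 from limma). Rfc4 had 6.13, 6.01, 5.95, 5.77 and 5.60 and ran from 5.99 to 7.15 with a median of 6.44, with 7 of 9 adenomas above all wild-type values (log2 fold change 0.62, standard error 0.18, adjusted p = 0.0306 from limma). Rfc4 lost its call when wild-type pituitary 3, 4 or 5 or adenoma rat 1 or 3 was left out, with adjusted p up to 0.0822 in limma. Pcna, the clamp itself, had wild-type values of 8.81, 9.10, 8.74, 8.39 and 7.86 and adenoma values from 8.53 to 9.27 with a median of 8.99. Pcna overlapped between the groups and did not pass the test (log2 fold change 0.39, 95% interval 0.017 to 0.75), although it was called without wild-type pituitary 2, with a log2 fold change of 0.51. The other loader genes Rfc1, Rfc2 and Rfc5 had log2 fold changes of -0.19, 0.098 and 0.19, and Rfc5 was called without wild-type pituitary 5 (log2 fold change 0.27).

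Replication protein A, which coats single-stranded DNA at the fork, had no called gene among 3, where 8.49% of all probe sets were called higher. This count was not tested against that share. Rpa1, Rpa2 and Rpa3 had log2 fold changes of -0.17, 0.046 and 0.0071, and the highest upper end of their 95% intervals was 0.28. None of the 3 reached an unadjusted p under 0.05 in limma.

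Polymerases and primase had 2 genes called higher among 8, against 8.49% of all probe sets. Prim1, the catalytic subunit of primase that starts each Okazaki fragment, had wild-type values of 7.54, 7.34, 7.04, 6.66 and 6.42 and adenoma values from 7.46 to 8.17 with a median of 7.85. The 2 wild-type pituitaries of prefix 08 were the highest of the 5 for Prim1, and 7 of 9 adenomas were above them (log2 fold change 0.82, standard error 0.17, adjusted p = 0.00446 from limma). Pole, the catalytic subunit of the leading strand polymerase, had 4.92, 5.36, 5.14, 5.26 and 4.99 in wild-type tissue and ran from 5.30 to 6.29 with a median of 5.71 in the adenomas. For Pole 8 of 9 adenomas exceeded all wild-type values (log2 fold change 0.68, standard error 0.15, adjusted p = 0.00667 from limma), the exception being adenoma 9 at 5.30. The genes of polymerase alpha, Pola1 and Pola2, had log2 fold changes of -0.048 and 0.085, and the second primase subunit, Prim2, of 0.23. Polymerase delta, which extends Okazaki fragments, had values of 0.079 for Pold1, 0.23 for Pold2 and -0.25 for Pold3, none of which passed.

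In Okazaki fragment joining, Fen1 cuts the displaced flap and Lig1 seals the nick. Fen1 had wild-type values of 7.14, 7.25, 6.79, 6.80 and 6.85 and adenoma values from 7.38 to 8.13 with a median of 7.76, without overlap. It was 1.68-fold higher (log2 fold change 0.74, standard error 0.12, adjusted p = 0.000804 from limma). Lig1 did not pass the test (log2 fold change 0.18, 95% interval 0.012 to 0.35).

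Chromatin and fork genes were called higher for 2 of 4, against 8.49% of all probe sets. Uhrf1 recognises hemimethylated DNA behind the fork and brings in the maintenance methyltransferase. Its wild-type values were 5.98, 6.12, 6.05, 6.19 and 5.96 and its adenoma values ran from 6.56 to 7.21 with a median of 6.93, with no overlap and little spread among the wild-type pituitaries (1.79-fold, log2 fold change 0.84, standard error 0.11, adjusted p = 0.000199 from limma). Chaf1b, a subunit of the chromatin assembly factor that places histones on new DNA, had 5.52, 5.35, 5.61, 5.27 and 5.44 in wild-type tissue and ran from 5.66 to 6.17 with a median of 6.01 in the adenomas, also without overlap (log2 fold change 0.52, standard error 0.099, adjusted p = 0.00256 from limma). Slbp, which binds the stem-loop of histone mRNAs, and Tipin, a partner of Timeless at the fork, had log2 fold changes of -0.14 and 0.12 and did not pass.

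**Figure D4:**
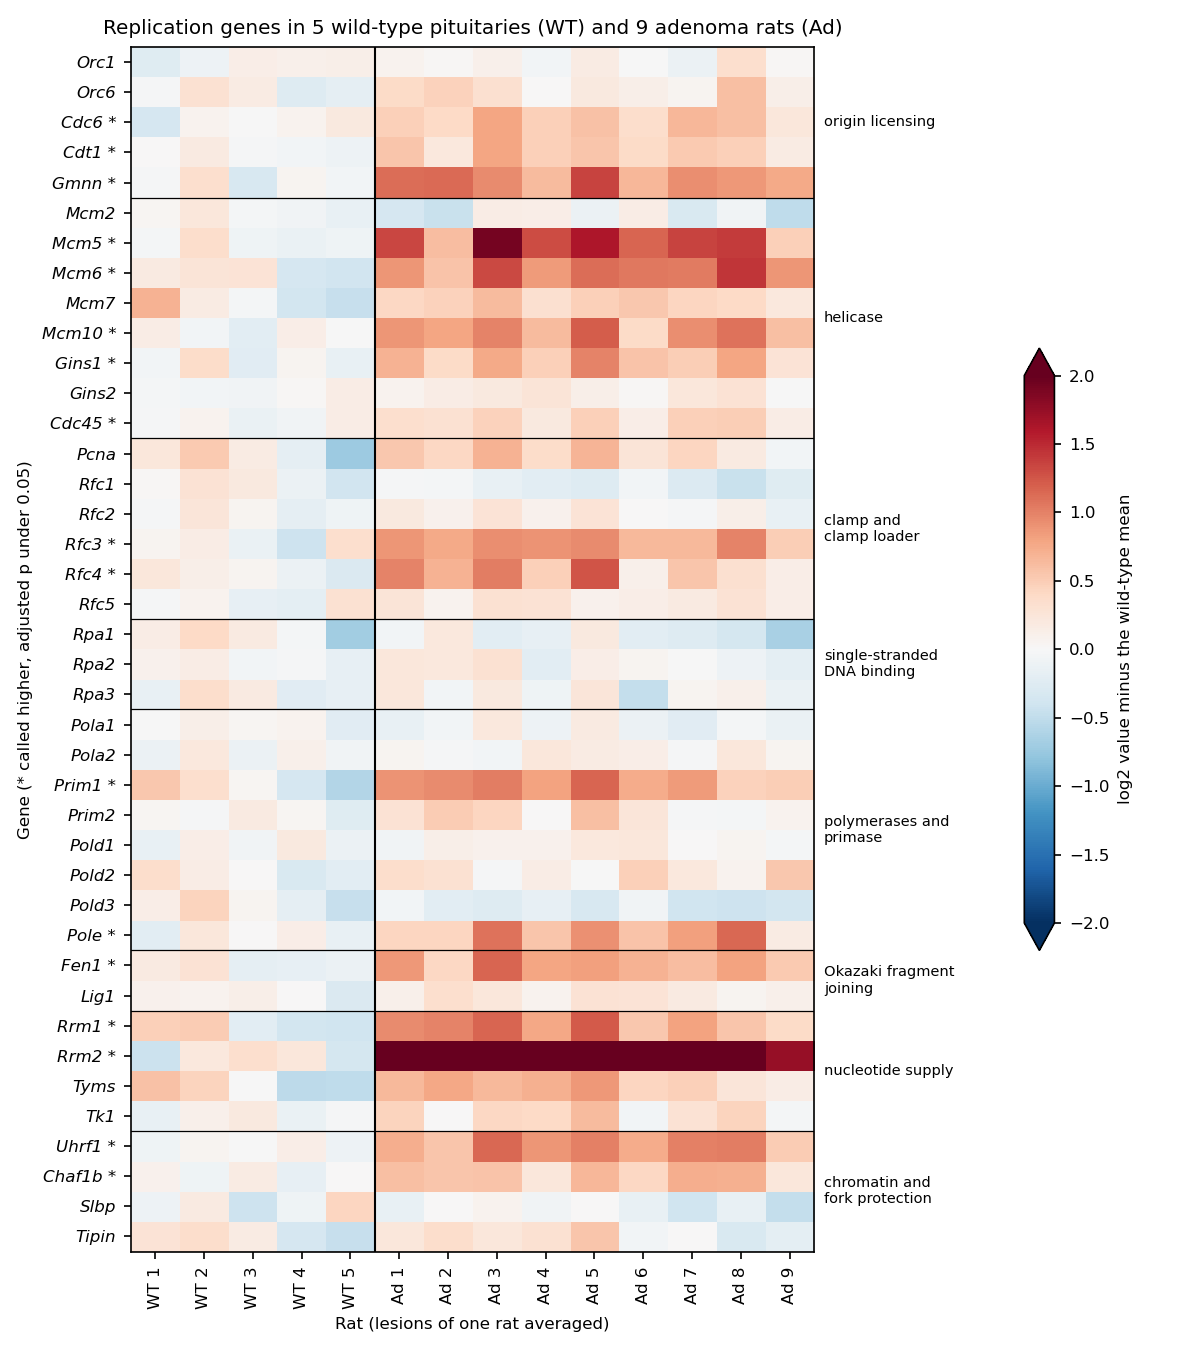
Heat map of the 40 genes (rows, grouped by role) in each rat (columns, WT for wild-type pituitaries and Ad for adenomas). Colour is the log2 value minus the wild-type mean of that gene, clipped at -2 and 2, and stars mark the 17 genes called higher. Rrm2 is clipped in 8 of the 9 adenoma columns, and adenoma 9 is the palest column for many genes.

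The adenomas differed from each other in these genes. The median over the 40 genes of the log2 value minus the wild-type mean was highest in adenomas 5 and 3, at 0.55 and 0.45, and lowest in adenoma 9, at 0.13. Over the wild-type pituitaries this median ran from -0.15 in pituitary 5 to 0.19 in pituitary 2, so adenoma 9 lay inside the wild-type range and the other 8 lay above it. Adenoma 9 had the lowest adenoma value in 18 of the 40 genes, and adenomas 5 and 3 had the highest in 13 and 12. Even so, Rrm2 in adenoma 9 was at 6.94, above all wild-type values.

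Lesions of 1 rat were compared where a rat had several. The 3 lesions of adenoma rat 3 had Rrm2 values of 9.05, 8.03 and 8.62, and the 3 of rat 5 had 8.73, 8.60 and 8.37. Both lesions of rat 9 were low and close to each other, at 6.93 and 6.95. The standard deviation of Rrm2 was 0.30 between lesions of a rat and 0.65 between rats. Over the 40 genes the median was 0.15 within and 0.21 between rats, and the value between rats was larger for 34 of 40 genes (85%), against 54.9% of all probe sets. All 16 single lesions lay above all wild-type pituitaries for Rrm2, Mcm5, Mcm6, Mcm10, Gmnn, Cdc6, Rfc3, Fen1 and Uhrf1. Lesions of 1 rat are not independent, and the share of all probe sets with this order over single lesions was not computed.

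**Figure D5:**
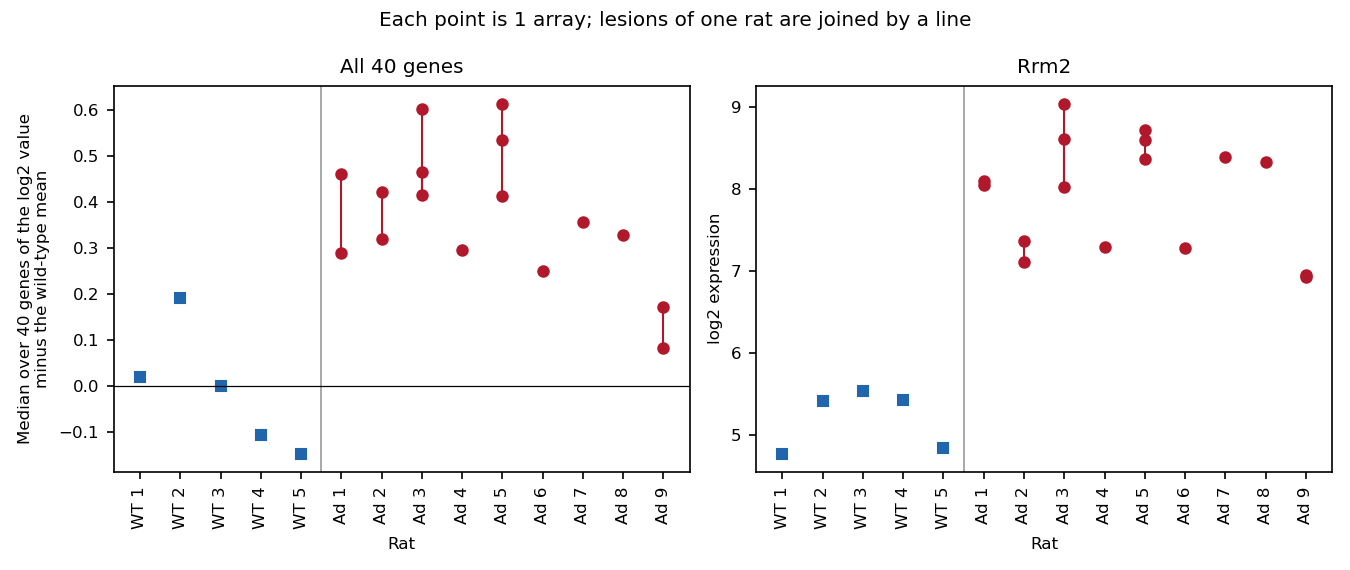
Left, the median over the 40 genes of the log2 value minus the wild-type mean, and right, log2 expression of Rrm2, on the vertical axes, for each array by rat on the horizontal axis. Blue squares are wild-type pituitaries, red circles are lesions, and a line joins the lesions of 1 rat. In the left panel both lesions of rat 9 lie below wild-type pituitary 2, while in the right panel all 16 lesions lie above all 5 wild-type pituitaries.

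The prefix of the sample numbers moved with several of these genes. Among the wild-type pituitaries, both of prefix 08 were above all 3 of prefix 09 for 14 of the 40 genes, where 16.6% of all probe sets had this order. The mean difference, prefix 08 minus 09, was 0.86 for Tyms, 0.81 for Rrm1, 0.74 for Prim1 and 0.72 for Mcm7 on the log2 scale. Over the 40 genes its median was 0.18 in wild-type pituitaries and 0.14 in adenomas, against -0.015 and -0.0044 over all probe sets. The 17 called genes were called on both prefixes together, so their signs within each prefix are no independent support. Within each prefix all 17 had a positive log2 fold change, from 0.33 to 2.86 in prefix 08 and from 0.33 to 2.47 in prefix 09. For Rrm2 the values were 2.86 and 2.47, for Mcm5 1.20 and 1.20, and for Uhrf1 0.87 and 0.81. Tyms had 0.22 and 0.67, and Mcm7 had 0.027 and 0.68. With prefix 08 alone (2 wild-type values against 5) limma called 4 genes higher, Mcm10, Rfc3, Rrm2 and Uhrf1, where 1.24% of all probe sets were called higher. With prefix 09 alone (3 against 4) it called 14 higher, where 6.79% of all probe sets were.

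No gene of the 40 had a called difference between the sexes in its change (limma interaction term, 0% of all probe sets called), and at an unadjusted p under 0.05 there was 1 of 40, against 6.78% of all probe sets. All 17 called genes had positive values in both sexes, from 0.23 to 2.92 in females and from 0.46 to 2.67 in males. They were called on both sexes together, so these signs are no independent support. All male adenoma rats had prefix 08, while of the wild-type males 1 had 08 and 2 had 09. For age, limma fitted the change per month among the 9 adenoma rats. None of the 40 genes was called (0.00342% of all probe sets were), and 3 of 40 had an unadjusted p under 0.05, against 11.8% of all probe sets. The slopes were positive for 19 genes and negative for 21. With the adenomas of 7 and 8 months alone, numbers 4 and 6, 3 genes were called higher, namely Mcm5, Rrm2 and Uhrf1, where 0.407% of all probe sets were.

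A second list held other genes of replication and nucleotide supply that were not among the 42. Of its 76 genes, 59 were measured, and of these 13 were called higher and 1 lower. Over the whole array 8.49% of probe sets were called higher and 9.06% lower. The groups within the list are small, and no group was tested against these shares. The median log2 fold change of the 59 genes was 0.15, against -0.035 over all probe sets. Top2a, the topoisomerase that untangles replicated chromosomes, had wild-type values of 5.56, 6.17, 5.88, 5.80 and 5.63 and adenoma values from 6.89 to 9.09 with a median of 8.24. The groups did not overlap, adenoma 9 was again the lowest, and the rise was 5.29-fold (log2 fold change 2.40, standard error 0.31, adjusted p = 0.000246 from limma). Mthfd2, a mitochondrial enzyme of the folate cycle that feeds purine and thymidylate synthesis, had 7.50, 7.97, 7.87, 7.51 and 8.77 and ran from 9.54 to 11.10 with a median of 10.41. It was 5.2-fold higher, also without overlap (log2 fold change 2.38, standard error 0.28, adjusted p = 0.000103 from limma).

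Within nucleotide supply 6 of 26 further genes were called higher. Besides Mthfd2 they were Shmt2, which supplies 1-carbon units in mitochondria (log2 fold change 0.85), the nucleoside diphosphate kinase Nme2 (0.75), the thymidylate kinase Dtymk (0.47), the purine enzyme Atic (0.45) and the pyrimidine enzyme Umps (0.39). In polymerase, loader and joining genes 3 of 11 were called higher, with the exonuclease Exo1 (0.64) and the lesion bypass polymerase Polh (0.31) beside Top2a. The histone chaperone Asf1b (0.73) and Fam111a (0.77) were the 2 called among 10 further chromatin and fork genes. Origin and helicase genes had 2 of 12 called higher, the origin kinase gene Cdc7 (0.40) and Mcm8 (0.47).

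Orc2, an origin recognition subunit, was the 1 gene called lower in that list. Its wild-type values were 8.34, 8.68, 8.80, 8.96 and 8.89, and its adenoma values ran from 7.98 to 8.39 with a median of 8.19. The adenomas lay below all wild-type values in 8 of 9 cases, and limma gave -0.55 for the log2 fold change (standard error 0.097, adjusted p = 0.00167).

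The mutated gene was still measured as mRNA. Cdkn1b had a log2 fold change of 0.33 (adjusted p = 0.0324 from limma), with 7 of 9 adenoma values above all wild-type values.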

How the data were processed

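The deposited values, from Rat Gene 1.0 ST arrays of Affymetrix, were log2 gene-level expression that the authors made in Affymetrix Expression Console with RMA (background correction, quantile normalization and median polish). No source used here gives program versions, and scanner files were not used. Such normalization makes array distributions alike and understates folds of dim probe sets. Array medians ran from 6.36 to 6.53, and precision is limited by how many arrays there were. Of 29214 probe sets, 15310 carried 1 symbol.

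Lesions sharing a sample number were averaged. limma 3.58.1 in R 4.3.3 compared 9 adenoma with 5 wild-type values, with Benjamini-Hochberg adjustment over all probe sets and a threshold of 0.05, residual degrees of freedom 12 and prior 3.21. The fit was tested on simulated data. P-values set each group difference against the spread between these animals, which limma moderates over all probe sets. Every one of the 40 genes was accounted for by role. Wild-type values, with the range and median of the adenoma values, were given for called genes with the largest changes, up to 3 a role. The same was given for a few others chosen after their values were seen (Mcm2, Mcm7, Pcna, Tyms). In the second list, called genes up to 6 a group were named. The members and lists were chosen with earlier results of these data known. Motifs were counted with Python 3.11.15. Alternatives were lesions kept separate, other tests and thresholds, prefix, sex or replicate terms, subsets, other scalings, other probe sets and each animal left out.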

Additional observations from a re-analysis of the deposited data

Results flagged for a closer look

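Of 80 groups of values tested for a sample far from the others (40 genes in 2 groups), 2 were marked, and chance marks about 1 in 20. For Mcm5, wild-type pituitary 2 was at 6.71 on the log2 scale, the next highest wild-type value was 6.32, and this gap was 0.797 of the range of the group. For Lig1, wild-type pituitary 5 was at 7.65, the next lowest was 7.93, and the gap was 0.723 of the range.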

How the results depend on the processing

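Leaving out each animal in turn gave 16 to 19 genes called higher and a median log2 fold change of 0.27 to 0.34. Genes called lower ran from 0 to 1, the 1 being Pold3 without wild-type pituitary 5. In the second list 10 to 15 were called higher and 1 to 2 lower. Over the other settings the median ran from 0.23 to 0.42. Rrm2 kept its call under every setting run, and Uhrf1 under every one except the 2 that asked for a fold over 2. Of all probe sets, limma called 1.43% higher with a fold over 2, 1.24% with prefix 08 alone and 0.407% with adenomas of 7 or 8 months alone. Shares of all probe sets under the other settings of this section are not given, so those counts cannot be set against the array.

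Higher calls fell to 3 with the methods' t-test and a fold over 2 (added after the data were seen), to 3 with limma and a fold over 2, to 4 with prefix 08 alone and to 3 with adenomas of 7 or 8 months alone. These settings drop genes by size or use fewer samples. In the second list the higher calls were 2, 2, 2 and 1 under the same settings and 8 without dim probe sets, and the lower calls were 0 under all 4. Lower calls there were 2 with the methods' t-test alone, with lesions taken as independent, with the prefix as a block, with prefix 09 alone and with renewed quantile normalization. Renewed quantile normalization also called 1 of the 40 lower, Rfc1. The cause was not tested. The samples share only a replicate number and are not paired by it (correlations of deviations from 0.013 to 0.22 over 5 numbers), and the replicate block gave 18 genes called higher and 0 lower.

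Signs turned only for genes that were not called, with main log2 fold changes from -0.17 for Rpa1 to 0.23 for Pold2. Rpa3 went to -0.024 with the prefix as a block, -0.00115 and -0.044 with prefix 08 and 09 alone, -0.28 with adenomas of 7 or 8 months, and from -0.050 to 0.096 as single animals were left out. Adenomas of 7 or 8 months alone gave Orc1 -0.032, Mcm2 0.14 and Rpa2 -0.083. Pold2 was -0.10 with prefix 08 alone and 0.50 with prefix 09 alone, and Orc1 was -0.056 with prefix 09 alone. Pola1 was 0.000287 with the methods' t-test and with lesions taken as independent, and 0.011 with sex as a covariate. Rpa1 was 0.050 with the replicate block. Without dim probe sets 30 of the 40 genes were tested and 14 called higher. The 10 genes left out as dim included the called genes Cdc6, Mcm10, Gins1, Pole and Chaf1b, while Mcm7 and Tyms gained a call.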
